A study of Mus musculus with 54 samples.

Results

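Spermatocytes of BORIS KO mice were compared with spermatocytes of WT mice by RNA-seq. The comparison holds every spermatocyte RNA-seq library of these genotypes in the series, 3 of BORIS KO and 2 of WT, which makes 5 of 54 samples. WT mice were *Ctcf*+/+*Boris*+/+ and BORIS KO mice were *Ctcf*+/+*Boris*-/-, both of the C57BL/6 strain and 3 months old, and neither group was treated. The cells were elutriated and then sorted, the germ cell preparations of the study pooled 4 mice each, and the purity of the spermatocytes by SYCP3 staining was 81.5 ± 3.7% over the study. Nothing in the labels ties a spermatocyte library to its own animals or preparation, so the p-values measure the spread between these libraries, which may be technical. Other libraries of the same series serve as a reference, namely WT and BORIS KO round spermatids and whole testes, and spermatocytes of CTCF HET (*Ctcf*+/-*Boris*+/+) and CM (*Ctcf*+/-*Boris*-/-) mice of the same strain and age, with 3 libraries a group.

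BORIS, encoded by the gene annotated as *Ctcfl*, is the paralog of the zinc finger protein CTCF and is made in male germ cells, where it binds many of the DNA sites that CTCF binds. CTCF holds cohesin at its sites and shapes chromatin loops. In spermatocytes the chromosomes recombine along the synaptonemal complex, a protein scaffold built on axes of meiotic cohesin, while the X and Y chromosomes are silenced in the sex body.

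*Ctcfl* could not serve to check the genotype in these cells. Its counts were 6 and 5 in the WT libraries and 1, 8 and 0 in the BORIS KO libraries, with between 65533660 and 88946702 counts in all per library, and it was below the filter for testing. In round spermatids *Ctcfl* had 252, 239 and 174 counts in WT and 149, 175 and 184 in BORIS KO, with a log2 fold change of -0.78 (edgeR adjusted p = 0.0248), so counts on the gene were lower and not absent there. The counts do not show which part of the gene they cover. *Ctcf* was at 35.4 and 33.3 CPM (counts scaled to library size) in WT spermatocytes and at 30.2, 31.6 and 30.2 CPM in BORIS KO. Its log2 fold change of -0.17 ± 0.07 (SE) did not pass the test (adjusted p = 0.0503). In the fit described below that removes the trend on GC content, it was 0.07 (adjusted p = 0.309). From library totals alone, without TMM factors, *Ctcf* was at 31.9 and 30.87 CPM in WT and at 32.79, 33.35 and 31.6 CPM in BORIS KO. A direction for *Ctcf* therefore cannot be given.

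Transcripts of spermatocytes were the most abundant of the marker sets. Summed over 18 markers of pachytene and diplotene spermatocytes, the level was 24110 and 24730 CPM in WT and 20120, 21800 and 21160 CPM in BORIS KO. *Hspa2*, the chaperone of pachytene cells, stood at 3698 and 3670 CPM in WT and at 3064, 3400 and 3388 CPM in BORIS KO, and *Sycp3*, the axis protein used for the purity estimate, at 467 and 371 CPM against 272, 272 and 258 CPM. Markers of leptotene and zygotene cells summed to 8024 and 7289 CPM in WT and to 3825, 4293 and 4314 CPM in BORIS KO. Markers of round spermatids summed to 1301 and 1188 CPM against 701, 807 and 822 CPM. The round spermatid sum rested on *Lrrc34*, at 847 and 708 CPM in WT and 268, 329.7 and 343 CPM in BORIS KO. Without *Lrrc34* it was 454 and 480 CPM against 433, 477 and 479 CPM, and of the 19 tested members 6 were higher and 3 lower at adjusted p < 0.05, with a median log2 fold change of 0.39. The leptotene and zygotene sum without its most abundant member, *Meig1*, was 2725 and 2363 CPM against 1603, 1643 and 1733 CPM. The median log2 fold change of that set was -0.58, and -0.04 with 0 called in the fit described below that removes the trend on GC content. The part of such cells in the differences described here was not tested. In these bulk samples, fewer cells of a kind and less RNA per cell cannot be told apart. Among somatic cells, the Sertoli cell markers summed to 17.1 and 17.8 CPM in WT and to 26.8, 12.7 and 11.8 CPM in BORIS KO, the endothelial markers to 6.21 and 6.05 against 11.2, 8.69 and 9.12 CPM, and the 12 macrophage markers to between 3.18 and 4.56 CPM in every library. Leydig markers summed to 8.18 to 10.5 CPM, peritubular and stromal markers to 11.8 to 14.2 CPM and erythroid markers to at most 0.112 CPM. Of the 7 erythroid markers 5 are in the count table and none passed the filter for testing.

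Many genes differed between the genotypes by a little, and few by much. Of 14338 genes tested, 4175 were higher in BORIS KO (29.1%) and 4032 lower (28.1%) at an adjusted p < 0.05 whatever the size of the change. A fold change above 2 besides was found for 748 genes that were higher (5.22%) and 460 that were lower (3.21%), and these 1208 are the genes said below to be called. At the stricter adjusted p < 0.001 and fold change > 2, the thresholds used in the study, 684 were called (4.77%), 377 higher and 307 lower. With all 4 genotypes of spermatocytes in 1 fit the counts were 87 at these thresholds, 5 higher and 82 lower, and 300 at the wider ones, 98 higher and 202 lower. Between WT and BORIS KO alone and without replicate 1 of WT, 187 were called at the stricter and 734 at the wider thresholds. The 5 libraries differed little within a genotype, with a biological coefficient of variation of 7.37%, against 19.6% in round spermatids, 24.7% in whole testis and 58.5% among the CM and CTCF HET spermatocytes.

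The direction of a change followed the base composition of the transcript. In the decile of genes with the lowest GC content, at a median of 40.1% GC, the median log2 fold change was -0.55, and in the decile with the highest, at 59.9% GC, it was 0.69, with every decile between them in order. Called genes that were higher had a median GC content of 57.0% and those that were lower 43.8%, against 50.3% over all tested genes. Both WT libraries had relatively more counts on GC-poor genes, with a median deviation from the mean of the 5 libraries of 0.34 and 0.21 in the lowest decile, and the BORIS KO libraries had fewer, with -0.21, -0.20 and -0.18. Since the WT libraries leaned one way and the BORIS KO libraries the other, the trend and the genotype cannot be told apart. The same trend was steeper in round spermatids, from -0.99 to 1.19, small in whole testis, from -0.03 to 0.17, and nearly flat between CM and CTCF HET spermatocytes, from 0.10 to 0.15, which differ by the same deletion of *Boris*. Exon length had a weaker relation, with a median log2 fold change of 0.21 in the shortest decile of genes and -0.19 in the longest.

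**Figure D1:**
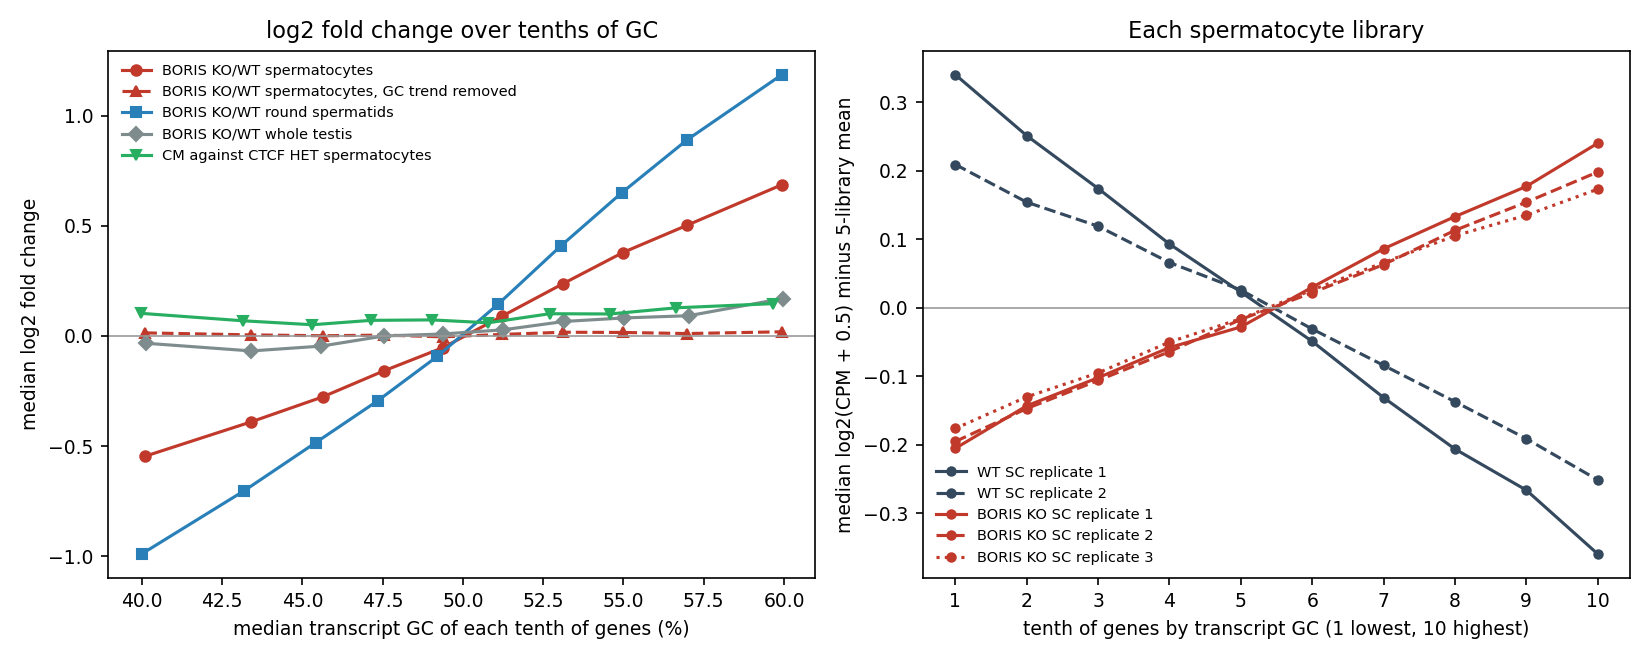
The left panel plots the median log2 fold change over deciles of genes against their median transcript GC content in percent, for BORIS KO against WT in 3 tissues and for CM against CTCF HET spermatocytes, and the right panel plots each spermatocyte library's median deviation, on the log2(CPM + 0.5) scale, from the mean of the 5 libraries over the same deciles. The line of BORIS KO against WT spermatocytes climbs from -0.55 to 0.69, both WT libraries slope down and all 3 BORIS KO libraries slope up.

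For this reason most values are given beside one from a fit in which every library's trend on GC content had been removed, which was possible for 13337 genes. That fit called 279 genes higher (2.09%) and 266 lower (1.99%), and at any fold 2655 were higher (19.9%) and 2874 lower (21.5%). Of the 1208 called genes 1086 had a GC value, and 373 of them were called in the same direction again, 788 passed the adjusted p in the same direction at any fold, and 1 took the opposite sign. Removing the trend also removes any change of expression that is itself tied to GC content, so both values are given for most results.

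The largest changes were found in both fits. *Ptprt*, a receptor-type tyrosine phosphatase gene on chromosome 2 (161347726 to 162486883, mm9), fell from 4.89 and 6.79 CPM in WT to 0.126, 0.160 and 0.161 CPM in BORIS KO, a log2 fold change of -5.27 ± 0.21 (adjusted p = 9.96e-08) and of -5.18 with the GC trend removed. *Vangl1*, which encodes a membrane protein of planar cell polarity, fell from 4.28 and 4.35 CPM to 0.196, 0.181 and 0.379 CPM (-4.12 ± 0.23, adjusted p = 8.29e-07), and by 4.32 with the trend removed. Both genes were nearly silent in the 3 BORIS KO libraries and no library of one group overlapped the other. *6430573F11Rik*, on chromosome 8, had 2 and 1 counts in WT and 194, 263 and 197 counts in BORIS KO, which is 141 times more per sequenced count (95% counting interval 48.0 to 685).

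Lower in BORIS KO were also genes of high expression. *Ccdc110*, a coiled-coil protein gene, fell from 578 and 507 CPM to 178, 198 and 201 CPM (-1.49 ± 0.08, adjusted p = 3.81e-07), and *Galntl6*, of the family of polypeptide N-acetylgalactosaminyltransferases, from 272.5 and 232 CPM to 106, 102 and 111 CPM. *Terf1*, the shelterin protein TRF1 that binds telomere repeats, fell from 128.5 and 110 CPM to 37.0, 41.9 and 42.4 CPM (-1.56 ± 0.08, adjusted p = 7.24e-07). All 3 were again called with the GC trend removed, at -1.24, -1.20 and -1.15, as were *Cyp2c55*, a cytochrome P450 (-2.01, and -1.56 with the trend removed), *Lgsn*, the lens protein lengsin (-2.09 in both fits), and *Zfp534*, a zinc finger gene (-3.61 and -2.82). *Cyp2c55* was lower in round spermatids too (-1.795), and in CM against CTCF HET spermatocytes without passing the test (-1.007, adjusted p = 0.1834). In whole testis it went the other way, with 36, 11 and 18 counts in WT and 129, 116 and 246 in BORIS KO. Its log2 fold change there was 3.04 without pairing (adjusted p = 0.1404) and 2.78 with the replicate number as a block (adjusted p = 0.004508). *Lgsn* was lower in round spermatids (-2.13), and at 1.06 in CM against CTCF HET spermatocytes, without passing the test (adjusted p = 0.309). *Zfp534* went from 10.3 and 7.69 CPM to 0.616, 0.767 and 0.832 CPM, and it has close relatives on chromosome 4 with which its reads could be shared. Of the 15 lowered genes with the smallest p, 14 had a GC value and 8 of these were called in both fits. The other 6, among them *Cfl2*, the muscle-type cofilin, and *Rgs22*, stood between -0.56 and -0.93 with the trend removed and still passed the adjusted p.

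Among the raised genes, *Vav2*, an exchange factor of small GTPases, went from 28.3 and 30.9 CPM to 112, 137 and 137 CPM (2.12 ± 0.10, adjusted p = 8.29e-07, and 1.65 with the trend removed). *Tmem40*, a membrane protein gene, went from 0.782 and 0.715 CPM to 3.89, 4.18 and 4.41 CPM (2.47, and 2.00 with the trend removed). Of the 15 raised genes with the smallest p, 13 had a GC value and 5 were called in both fits. The other 8 were GC-rich, at 58.4% GC or more, and dropped to between 0.36 and 0.94, as *Fam108a* did from 1.20 to 0.36 and *Gpr137* from 1.02 to 0.41. Raised genes of low GC content were found too and were chosen here after their values had been seen. *Lepr*, the leptin receptor, went from 2.42 and 2.50 CPM to 6.48, 7.12 and 7.63 CPM (1.52 ± 0.12, and 2.00 with the trend removed). *Snrpf*, a core protein of spliceosomal particles, went from 1.02 and 1.10 CPM to 3.32, 3.30 and 2.77 CPM (1.56 and 2.05).

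A set of 10 genes was called in the same direction in BORIS KO against WT spermatocytes, in BORIS KO against WT round spermatids and in CM against CTCF HET spermatocytes. These comparisons have no library in common, and each sets *Boris*-/- against *Boris*+/+. At adjusted p < 0.05 and fold change > 2 round spermatids had 4173 called genes (26.9%) and CM against CTCF HET spermatocytes had 24 (0.177%). Of those 24, the same 10 were called in BORIS KO spermatocytes in the same direction and 0 in the opposite one. The CTCF HET libraries had counts on only 12018 to 13406 genes, and the CM libraries on 14145 to 16666, against 17631 to 17970 in the WT and BORIS KO spermatocytes. *Ptprt*, *Ccdc110*, *Gm13157*, *Gm15421* and *Gm5458* were lower and *B3galtl*, *Atp9a*, *2010011I20Rik*, *Dnahc11* and *6430573F11Rik* were higher. With the GC trend removed in BORIS KO against WT spermatocytes, 8 of the 9 with a GC value were called again, and *Atp9a* remained higher at 0.62 (adjusted p = 0.000623). The genes were picked by their calls, so no test was made on the set.

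In CM against CTCF HET spermatocytes, *Ptprt* was at 4.12, 6.397 and 4.07 CPM in CTCF HET and at 0.246, 0.385 and 0.139 CPM in CM, on the scale of that fit (-4.23 ± 0.63, adjusted p = 0.0174). These levels were close to those of WT and BORIS KO. *Ccdc110* stood at 1006, 951 and 1147 CPM against 311, 384 and 447 CPM (-1.44 ± 0.14, adjusted p = 0.00248), and in round spermatids at 879, 886 and 878 CPM in WT against 240.5, 231 and 215 CPM in BORIS KO (-1.94, adjusted p = 2.80e-06). In every one of these 3 comparisons the *Ccdc110* level of each *Boris*-/- library lay below that of each *Boris*+/+ library. In whole testis its values were 95.6, 56.8 and 105 CPM in WT and 43.7, 40.6 and 47.4 CPM in BORIS KO, a log2 fold change of -0.97 that did not pass the test without pairing (adjusted p = 0.203) and of -0.93 that passed it with the replicate number as a block (adjusted p = 0.0136).

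*B3galtl*, which encodes a glucosyltransferase acting on O-fucose of thrombospondin repeats, rose from 12.2 and 11.1 CPM in WT to 25.8, 25.6 and 26.5 CPM in BORIS KO spermatocytes (1.16 ± 0.08, adjusted p = 1.38e-06). CTCF HET spermatocytes had 1.55, 2.63 and 1.40 CPM of it and CM spermatocytes 22.3, 20.6 and 23.8 CPM (3.58 ± 0.31, adjusted p = 0.00119). Levels in the *Boris*-/- libraries were thus similar in both comparisons, while the 2 control groups, fitted apart from each other, were not. *Atp9a*, of the phospholipid flippase family, rose from 37.7 and 41.2 CPM to 99.9, 78.7 and 81.5 CPM in BORIS KO (1.14 ± 0.10, adjusted p = 1.34e-05), and stood at 17.6, 12.3 and 15.2 CPM in CTCF HET and 44.1, 38.9 and 33.9 CPM in CM. *Dnahc11*, an axonemal dynein heavy chain gene, rose from 1.88 and 2.59 CPM to 7.67, 4.401 and 5.27 CPM (1.36 ± 0.27, adjusted p = 0.0037) and was at or near 0 in CTCF HET, so no fold is given there.

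**Figure D2:**
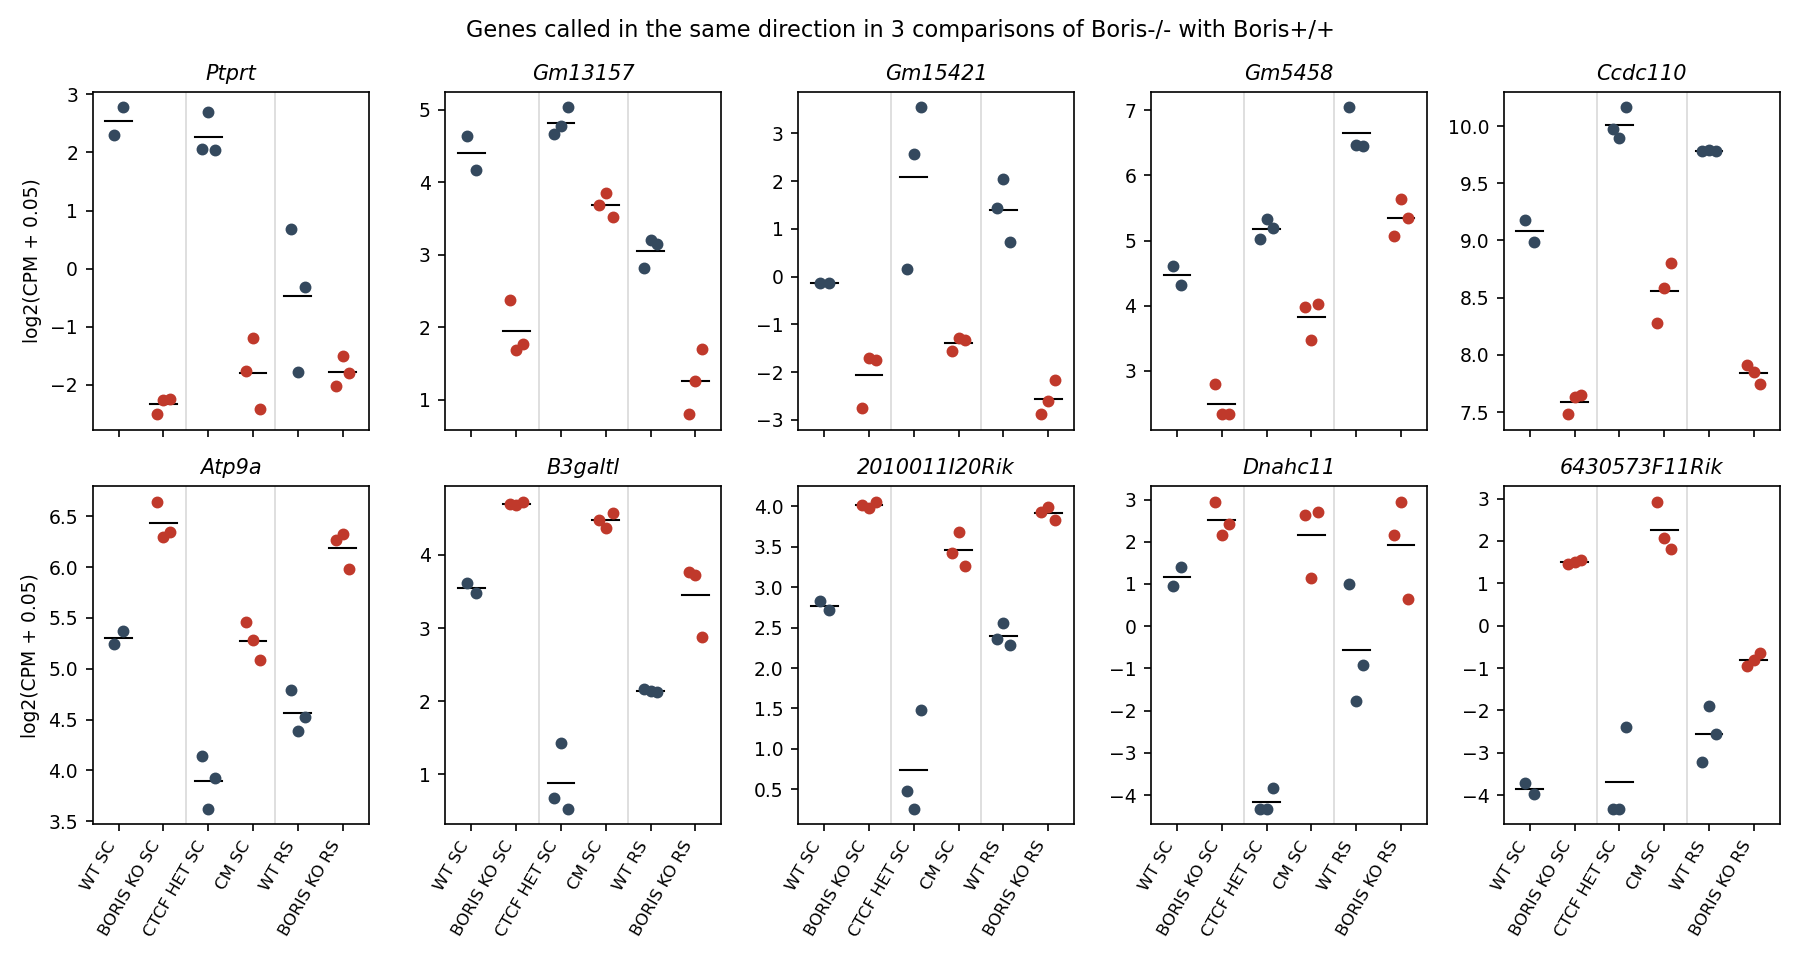
Each panel plots 1 gene, with a point per library on a log2(CPM + 0.05) axis and a line at the group mean, for *Boris*+/+ groups (WT SC, CTCF HET SC, WT RS) in blue and *Boris*-/- groups (BORIS KO SC, CM SC, BORIS KO RS) in red, where SC are spermatocytes and RS round spermatids. The upper 5 genes are lower and the lower 5 higher in the *Boris*-/- group of each pair, and libraries of paired groups overlap only for *Ptprt* and *Dnahc11*, both in round spermatids.

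Both *Ccdc110* and *Atp9a* had a BORIS and a CTCF peak within 1 kb of an annotated transcript start in WT germ cells, and their BORIS summits are shown to let the reader compare the bound sequence of a lowered and a raised gene. Of the same set, *B3galtl* also had both peaks, while *Ptprt*, *2010011I20Rik* and *6430573F11Rik* had neither. A BORIS peak lay that close to a start in 18.9% of all tested genes. The capitals mark letters that match a shortened form of the CTCF motif (CC, any 3 bases, AG, any 2 bases, then GGC), on the plus strand for *Atp9a* and on the minus strand for *Ccdc110*, in the mm9 genome read on the plus strand. This pattern was found on either strand within 50 bases of the summit at 49.0% of 7652 BORIS peaks and 45.6% of 34625 CTCF peaks, and at 2.33% and 1.95% of windows of the same size 1 kb away. It was found at 31.8% of the 2599 BORIS summits at start sites of tested genes, and the summits printed here were chosen from the 14 with a match among 41 named genes.
Ccdc110, chr8:47020209-47020280: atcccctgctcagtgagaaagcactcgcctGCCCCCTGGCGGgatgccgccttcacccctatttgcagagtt
Atp9a, chr2:168566786-168566857: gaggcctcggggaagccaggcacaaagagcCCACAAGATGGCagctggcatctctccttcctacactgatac

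The *Ccdc110* summit lay 286 bases inside the gene from its outermost start under a peak of height 731, and that of *Atp9a* 1105 bases inside from its outermost start under a peak of height 57. A match describes the letters and not a bound factor.

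Genes of the synaptonemal complex and of the meiotic axis were mostly lower before the GC trend was removed. All 10 listed genes were tested, 7 were lower and 1 higher at any fold, with 2 called lower, and their median log2 fold change was -0.54, against 0.02 over all tested genes. Here and for each list below, the shares over all tested genes at any fold are 29.1% higher and 28.1% lower. With the trend removed they are 19.9% and 21.5%. *Sycp2*, an axis protein that pairs with SYCP3, was at 3071 and 2381 CPM in WT and at 1226, 1230 and 1253 CPM in BORIS KO (-1.14 ± 0.09, adjusted p = 4.03e-06). *4930447C04Rik*, which encodes the central element protein SIX6OS1, was at 54.8 and 43.0 CPM against 20.7, 21.0 and 21.9 CPM (-1.20 ± 0.09, adjusted p = 2.89e-06). These genes are GC-poor, at a median of 37.3% GC. With the trend removed, 3 were higher, 3 lower and 0 called, the median was -0.02, *Sycp2* stood at -0.41 (adjusted p = 0.000584) and *Sycp3*, at -0.65 before, stood at 0.03 (adjusted p = 0.714). *Sycp1*, the transverse filament protein, changed sign, from -0.50 to 0.31. A direction for the whole complex therefore cannot be given.

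The *Sycp2* summit is shown as a site at a meiotic gene lower in both fits and was picked among those with a match. *Nek2*, described below, also had a BORIS and a CTCF peak at its start, and no match within 50 bases of its BORIS summit. The summit lay 72 bases upstream of the annotated start under a peak of height 380, and the capitals again mark the match on the plus strand.
Sycp2, chr2:178142418-178142489: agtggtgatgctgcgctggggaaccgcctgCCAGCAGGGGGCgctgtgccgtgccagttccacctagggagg

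Cohesin genes behaved alike. Of 18 tested, 2 were higher and 11 lower at any fold, with a median of -0.37, and after removal of the trend 4 were higher and 7 lower, with a median of 0.02. *Smc1b*, the meiotic SMC1 subunit, was at 907.5 and 736 CPM in WT and 338, 355 and 404 CPM in BORIS KO (-1.17 ± 0.10, adjusted p = 8.73e-06), and at -0.60 with the trend removed (adjusted p = 0.000255). *Nipbl*, the cohesin loader, was at 2683 and 2325 CPM against 1169, 1241 and 1331 CPM (-1.01, and -0.58 with the trend removed, adjusted p = 0.000158). *Smc1b* and *Nipbl* thus passed the test in both fits below a 2-fold change in the second. *Rec8*, the meiotic kleisin, went the other way, from 1.09 and 0.979 CPM to 1.61, 2.92 and 2.31 CPM (1.15 ± 0.24, adjusted p = 0.00186), and did not pass the test with the trend removed (0.67, adjusted p = 0.0713).

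Of 34 tested genes of meiotic recombination, 6 were higher and 18 lower at any fold with a median of -0.26, and with the trend removed 9 were higher and 8 lower with a median of 0.03. *H2afx*, the histone variant phosphorylated at DNA breaks, rose from 19.1 and 21.98 CPM to 52.1, 44.6 and 44.8 CPM (1.20), and its change was 0.44 with the trend removed. *Spo11*, the protein that makes the meiotic breaks and a neighbor of *Ctcfl*, was at 167 and 153 CPM against 111, 119 and 115 CPM (-0.48 ± 0.06, adjusted p = 4.41e-05, and -0.17 with the trend removed, adjusted p = 0.0195).

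Of 26 tested genes of the meiotic cell cycle, 5 were higher and 8 lower with 0 called, and with the trend removed 8 and 9. Over all tested genes 29.1% were higher and 28.1% lower, and 19.9% and 21.5% with the trend removed. *Nek2*, a centrosomal kinase with a median-range GC content of 50.4%, was at 839 and 864 CPM in WT and 475, 514 and 526 CPM in BORIS KO (-0.75 ± 0.07, and -0.78 with the trend removed, adjusted p = 4.04e-05). Of 19 tested genes of the Piwi pathway and germ granules, 6 were higher and 8 lower and 0 called, with a median of 0.00. After removal of the trend 4 were higher and 3 lower. *Fkbp6*, a chaperone partner in piRNA production, was higher in both fits (0.67 and 0.52), and *Ddx4*, the mouse Vasa helicase, was lower in the first only (-0.42, and 0.07 with the trend removed, adjusted p = 0.272).

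**Figure D3:**
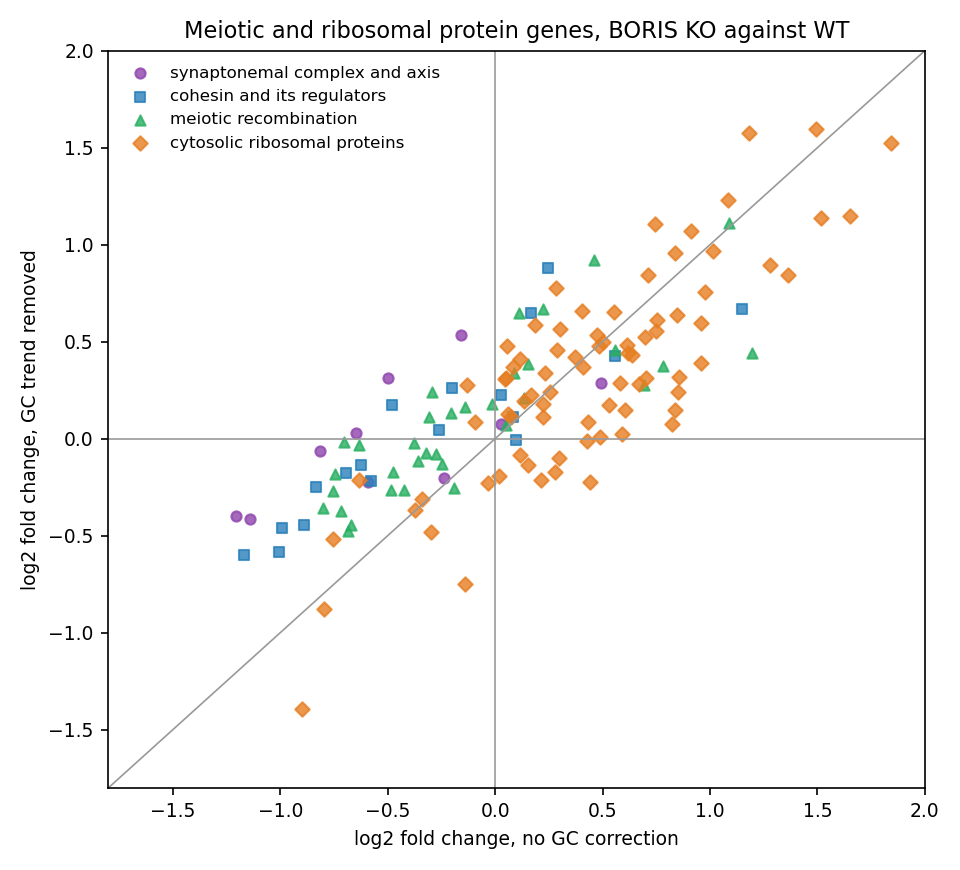
Each point is a tested gene of 4 lists, with its log2 fold change of BORIS KO against WT spermatocytes on the horizontal axis and the same with the GC trend removed on the vertical axis, and the diagonal marks equal values. Most synaptonemal, cohesin and recombination genes lie left of 0 and above the diagonal, with medians that go from -0.54, -0.37 and -0.26 to about 0, while the ribosomal protein genes keep a median of 0.32 after removal.

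Ribosomal protein genes were the listed group with the most raised members in both fits. Of 79 tested, 54 were higher and 6 lower at any fold, 9 were called higher and 0 lower, and the median was 0.44. With the trend removed 48 of 78 were higher and 9 lower, 8 were called higher, and the median was 0.32, while the median over all genes was 0.01. The summed level of the list was 5879 and 6130 CPM in WT and 7391, 7070 and 6578 CPM in BORIS KO. *Rps14* rose from 21.4 and 24.3 CPM to 73.4, 66.4 and 56.5 CPM (1.52 ± 0.11, adjusted p = 4.70e-06, and 1.14 with the trend removed), *Rpl15* from 6.87 and 8.44 CPM to 20.4, 17.3 and 14.4 CPM (1.18 and 1.58), and *Rpl13* from 27.2 and 32.9 CPM to 112, 93.9 and 77.2 CPM (1.65 and 1.15). In each of these 3 genes the groups did not overlap. In round spermatids 28 of 79 members were called higher and 2 lower. Of all 15513 genes tested there, 2159 were called higher and 2014 lower, 26.9% in either direction. The median was -0.02 in whole testis without pairing and 0.11 in CM against CTCF HET spermatocytes, with 0 called in either. Those 2 comparisons called only 0.0551% and 0.177% of all tested genes. Ribosomal protein genes have many near-identical pseudogene copies, and counts of single members are uncertain on that account.

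Genes of energy metabolism with germ cell isoforms were also more often higher. At any fold 12 of 22 were higher and 3 lower with a median of 0.29, and with the trend removed 9 were higher and 2 lower with the same median of 0.29. Over all tested genes the shares were 29.1% and 28.1%, and 19.9% and 21.5% with the trend removed. *Aldoart2*, an aldolase retrogene of germ cells, was called in both fits, at 1.87 and 1.91 CPM in WT and 4.00, 5.55 and 4.51 CPM in BORIS KO (1.32 ± 0.16, adjusted p = 2.32e-05, and 1.09). Among 15 immediate early and heat shock genes 7 were higher and 1 lower with a median of 0.47, which was 0.01 with the trend removed, and *Klf2*, an early response zinc finger gene, was called in both fits (2.34 and 1.63) with 11 and 6 counts in WT and 29, 58 and 48 counts in BORIS KO. Of 19 tested genes of the Bcl2 family, p53 pathway and caspases, 5 were higher and 6 lower, and 2 and 4 with the trend removed. *Trp63*, the p53 relative that guards germ cells, was called lower at 2.81 and 3.03 CPM against 1.12, 1.43 and 1.68 CPM (-1.05 ± 0.17), and stood at -0.70 with the trend removed (adjusted p = 0.00962). Of 18 tested genes of histone clusters 8 were higher and 4 lower, and 3 were called higher and 2 lower. With the trend removed, of 16 tested, 4 were higher and 4 lower, and 1 was called higher and 3 lower. *Hist1h1t*, the testis-specific linker histone, had 0.742 and 0.768 CPM in WT and 1.69, 1.54 and 1.40 CPM in BORIS KO (1.03, and 0.91 with the trend removed), while *Hist2h3c1*, an H3 gene, fell from 15.1 and 11.2 CPM to 5.39, 4.71 and 4.89 CPM (-1.40, and -1.76).

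Genes of the stages before meiosis moved in both directions. Of 15 tested markers of spermatogonia, 2 were called higher and 3 lower, and with the GC trend removed 0 were called higher and 4 lower. Over all tested genes 5.22% were called higher and 3.21% lower, and 2.09% and 1.99% with the trend removed. *Kit*, the receptor of stem cell factor, was called lower in both fits, at 0.636 and 0.715 CPM in WT and 0.252, 0.266 and 0.263 CPM in BORIS KO (-1.37 ± 0.26, adjusted p = 0.000773, and -1.26 with the trend removed). *Stra8*, the gene through which retinoic acid starts meiosis, was at 0.464 and 0.357 CPM against 0.112, 0.256 and 0.233 CPM (-1.01 and -1.07), and *Ret*, the receptor of GDNF, at 0.199 and 0.278 against 0.056, 0.128 and 0.131 CPM (-1.15 and -1.28). All 3 are low here, with at most 54 counts of *Kit*, 35 of *Stra8* and 21 of *Ret* in a library. In whole testis *Stra8* and *Ret* were higher, both at 1.16 without pairing (adjusted p = 0.212 and 0.217). With the replicate number as a block they were at 1.175 and 1.17 (adjusted p = 0.0496 and 0.0509). In CM against CTCF HET spermatocytes they were at 0.53 and 0.76, and neither passed the test. In round spermatids *Stra8* was lower (-1.38, adjusted p = 0.0197) and *Ret* was at 0.14 (adjusted p = 0.752). *Uchl1*, a ubiquitin hydrolase of spermatogonia, was higher, from 1.26 and 1.48 CPM to 3.09, 2.73 and 3.20 CPM (1.13 ± 0.16, and 0.64 with the trend removed). The change of *Kit* differed from that in round spermatids, where it was 0.25 (adjusted p = 0.491), with a difference of -1.56 on the log2 scale (adjusted p = 0.0458). In whole testis *Kit* was higher in BORIS KO, at 43.6, 47.6 and 70.6 CPM against 28.5, 33.9 and 15.8 CPM in WT. Its log2 fold change there was 1.04 without pairing (adjusted p = 0.2145) and 1.05 with the replicate number as a block (adjusted p = 0.2025), and passed neither test. In CM against CTCF HET spermatocytes *Kit* was at 0.79 (adjusted p = 0.935). The study concludes that CTCF and BORIS bound in the first intron of *Kit* repress it. It reports *Kit* RNA and protein raised in CM testes, and *KIT* raised in human K562 cells after BORIS knockdown. For the loss of CTCF or BORIS alone it reports only a slight rise that was not significant.

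A BORIS summit lay 886 bases inside the *Kit* gene under a peak of height 124, and it is shown as the site at a marker gene that was lower in both fits, with the match on the plus strand in capitals.
Kit, chr5:75971754-75971825: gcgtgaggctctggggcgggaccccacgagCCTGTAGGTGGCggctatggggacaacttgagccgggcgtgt

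Of 16 tested genes of retinoic acid supply and signalling, 7 were higher and 4 lower with a median of 0.27, and 4 and 4 with the trend removed. The shares over all tested genes were 29.1% and 28.1%, and 19.9% and 21.5% with the trend removed. *Rarg*, a retinoic acid receptor, rose from 2.29 and 2.74 CPM to 4.77, 5.06 and 5.34 CPM (1.01 ± 0.13, and 0.42 with the trend removed). Of 22 tested imprinted genes 2 were higher and 10 lower with a median of -0.37, and with the trend removed 2 were higher and 6 lower with a median of -0.31. *Usp29* was at 1.10 and 0.728 CPM in WT and 0.392, 0.330 and 0.394 CPM in BORIS KO (-1.30, and -0.97), and *Plagl1*, a zinc finger gene, at 0.238 and 0.304 against 0.098, 0.096 and 0.117 CPM (-1.39, and -1.16). *Ndn*, the gene of necdin, had 2 and 1 counts in WT and 13, 13 and 15 counts in BORIS KO, which is 8.83 times more per sequenced count (95% counting interval 2.82 to 44.6).

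**Figure D4:**
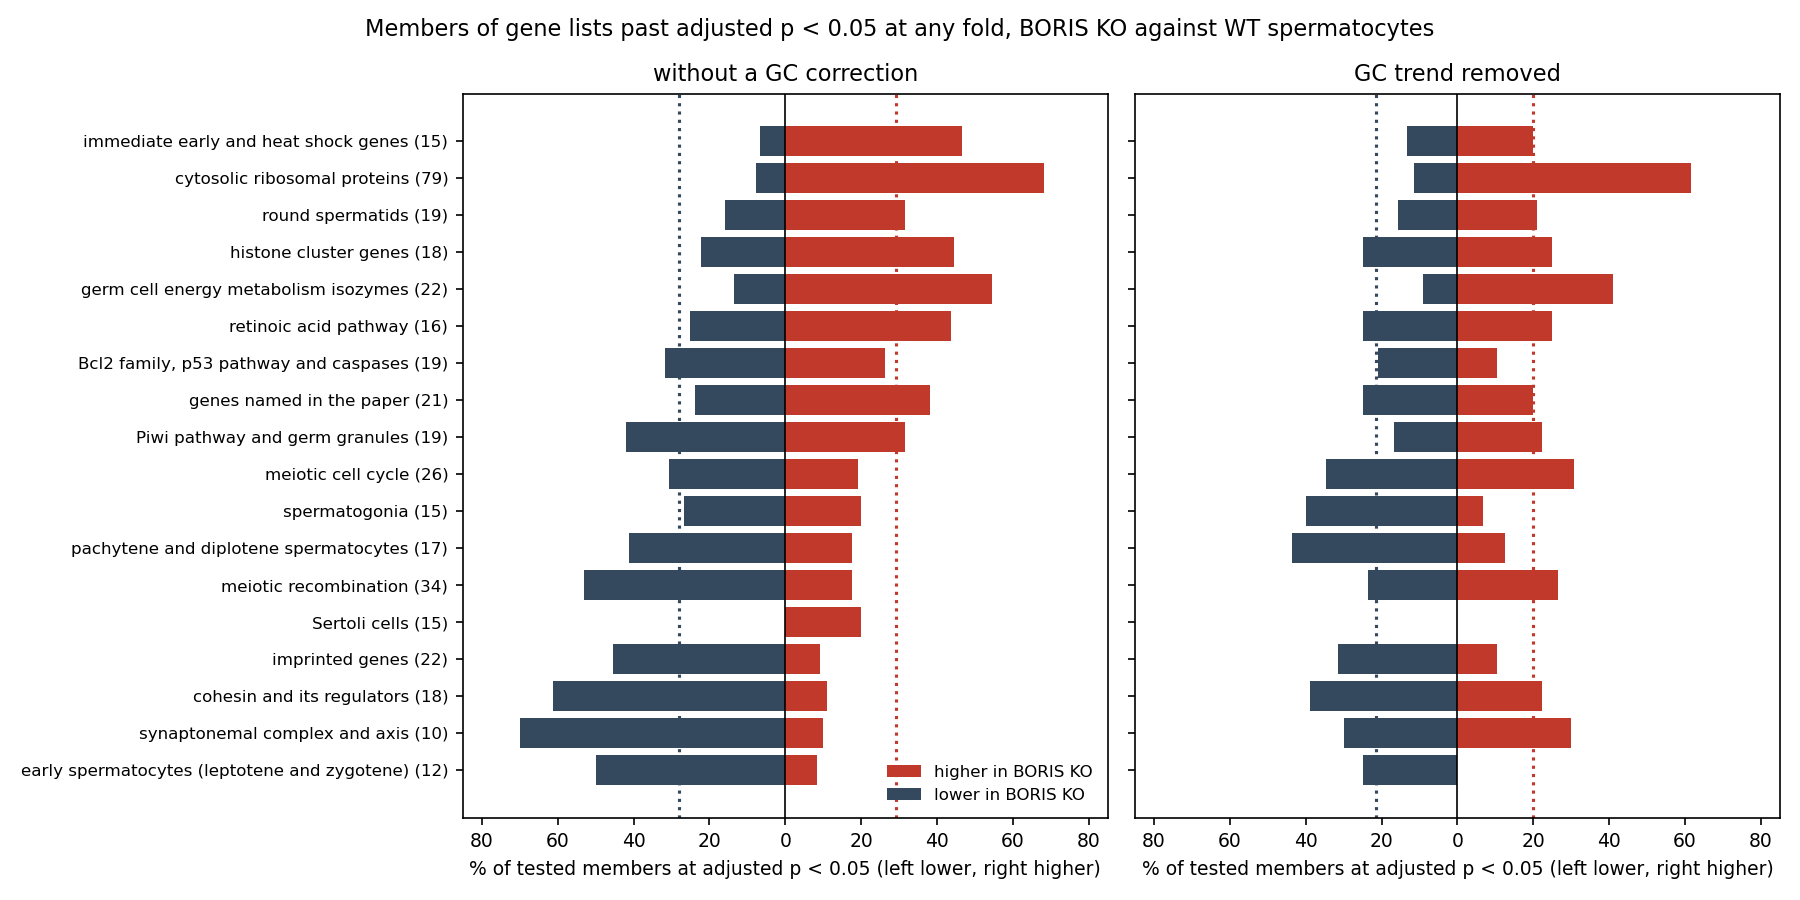
For each gene list, with the number of tested members in parentheses, bars give the percentage of members at adjusted p < 0.05 that were higher (right, red) and lower (left, blue) in BORIS KO against WT spermatocytes at any fold, without a GC correction and with the GC trend removed. Dotted lines mark the share over all tested genes, 29.1% higher and 28.1% lower on the left and 19.9% and 21.5% on the right, and the ribosomal proteins stand far to the right of the line in both panels, while in the right panel the lowered share of the synaptonemal, cohesin and recombination lists is smaller than in the left one.

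Genes that the study singles out in whole testis or at binding sites showed no common direction. Of 21 tested, 8 were higher and 5 lower, and 4 and 5 with the trend removed. These genes were picked by the study, in part on samples of this series, and their directions are no independent evidence. *Gal3st1*, a sulfotransferase gene, had 1 count over the 5 libraries, and *Prss50*, a testis protease gene, had 1 to 4 counts a library, so neither could be tested. *Fert2*, a kinase gene with a testis form, was at 57.1 and 56.5 CPM against 41.4, 46.5 and 47.5 CPM (-0.33 ± 0.07, adjusted p = 0.0016). *Tcp11*, a sperm protein gene, rose from 796 and 937 CPM to 1233, 1281 and 1254 CPM (0.54 ± 0.08, adjusted p = 9.19e-05, and 0.46 with the trend removed), and *Dbil5*, an acyl-CoA binding protein gene, rose from 70.2 and 79.7 CPM to 108, 110 and 105 CPM (0.52, and 0.40). *Gm10406* had 187 and 211 counts in WT and 57, 0 and 1 counts in BORIS KO, and did not pass the test (-3.36 ± 1.40, adjusted p = 0.129). Replicate 1 of BORIS KO was apart from the other 2 in that gene.

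The share of genes called was higher on the X chromosome than on the autosomes. Of 260 tested genes on it, 15 were called higher and 25 lower (15.4%), against 8.14% of the 13468 autosomal genes. With the GC trend removed 23 were called higher and 7 lower (11.8%, against 3.89%), and their median log2 fold change turned from -0.09 to 0.23, so the direction of the chromosome depends on the correction. The X-linked genes are GC-poor, at a median of 43.9% GC, and were at a median of 0.293 CPM against 10.2 CPM for autosomal genes, so that their counts were low. In both fits 18 genes were called in the same direction and they were chosen by that. *Kdm5c*, a histone demethylase that escapes X inactivation in females, was at 0.199 CPM in both WT libraries and at 0.462, 0.565 and 0.554 CPM in BORIS KO (1.40 ± 0.30, and 1.21 with the trend removed). *Hnrnph2*, an RNA-binding protein gene, was at 2.18 and 2.17 CPM against 0.560, 0.821 and 0.671 CPM (-1.66 ± 0.19, and -1.15), and *Atrx*, a chromatin remodeler gene, had 38 and 37 counts against 13, 10 and 14 (-1.62, and -1.05). The median log2 fold change of the X-linked genes was -0.76 in round spermatids (-0.14 with the GC trend removed), 0.00 in whole testis and 0.51 in CM against CTCF HET spermatocytes.

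**Figure D5:**
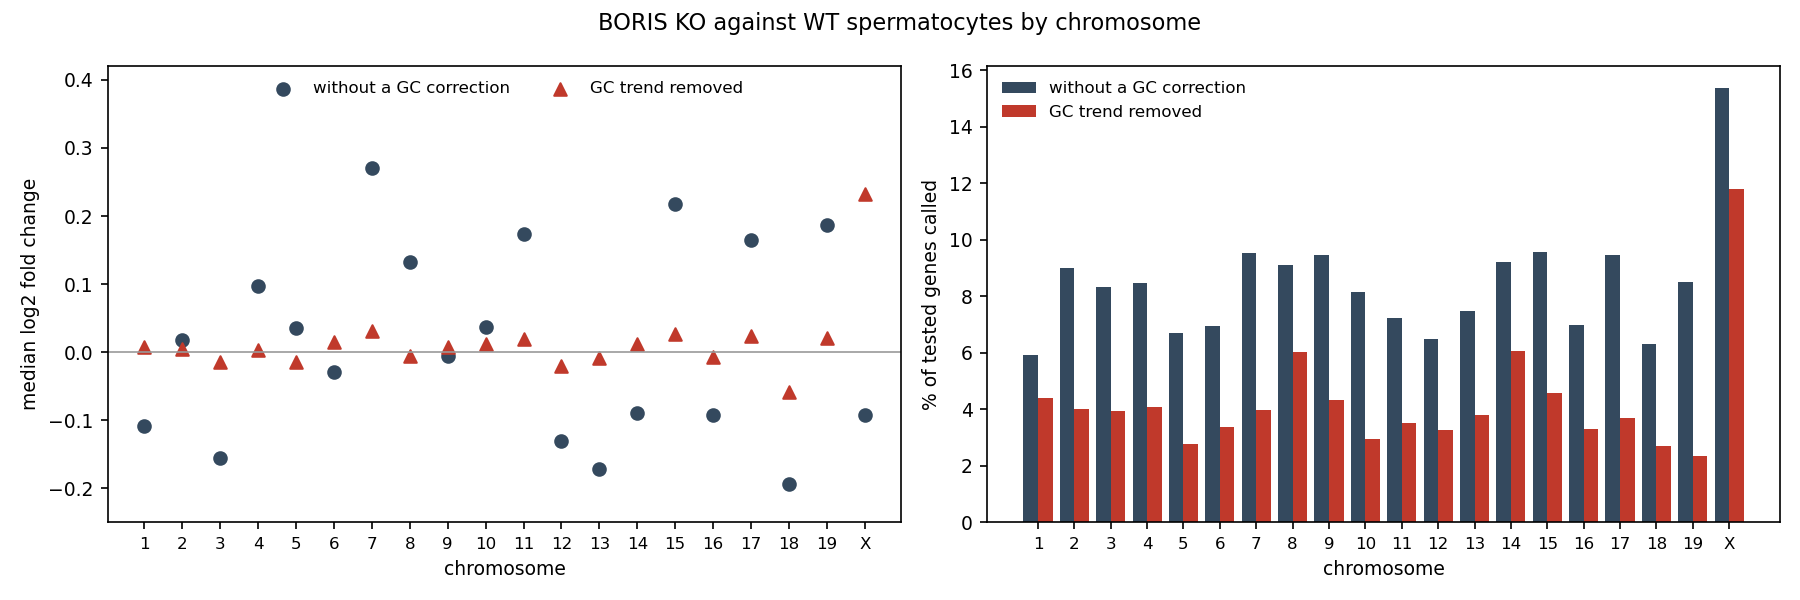
For each chromosome the left panel plots the median log2 fold change of the tested genes in BORIS KO against WT spermatocytes and the right panel the percentage of them called, without a GC correction in blue and with the GC trend removed in red. Medians of most autosomes draw in toward 0 once the trend is removed, chromosome 9 going from -0.005 to 0.008, while that of the X chromosome goes from -0.09 to 0.23, and the X chromosome has the highest share called, 15.4% and 11.8%.

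*Ctcfl* lies at 172919110 to 172945026 on chromosome 2, and 3 of the 10 genes called in all 3 comparisons, *Ptprt*, *Atp9a* and *2010011I20Rik*, lie on that chromosome. Among the 24 genes called in CM against CTCF HET spermatocytes 8 were on chromosome 2 (33.3%), against 8.17% of the tested genes, and 7 of these 8 lay within 25 Mb of *Ctcfl*, where 300 of the 1061 tested genes of the chromosome lie. In BORIS KO against WT spermatocytes, with the GC trend removed, 9.52% of 42 tested genes within 5 Mb of *Ctcfl* were called, 5.99% of 267 at 5 to 25 Mb and 3.03% of 758 farther away. Before removal the shares were 8.33%, 10.3% and 8.58%. Both *Boris*-/- groups carry the deleted allele together with the chromosome 2 sequence around it, and an effect of the one and of the other cannot be told apart. *2010011I20Rik*, less than 1 Mb from *Ctcfl*, rose from 7.02 and 6.54 CPM to 16.1, 15.7 and 16.6 CPM (1.25 ± 0.09, adjusted p = 1.58e-06, and 1.24 with the trend removed).

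Of 8 tested genes within 500 kb of *Ctcfl*, *Zbp1*, a sensor of Z-form nucleic acid, was the one called. The shares called over all tested genes were 5.22% higher and 3.21% lower. *Zbp1* fell from 2.19 and 2.24 CPM to 0.951, 1.17 and 1.09 CPM (-1.04 ± 0.16, adjusted p = 0.000183, and -1.24 with the trend removed). *Ankrd60* was lower at 111 and 109 CPM against 79.3, 89.3 and 85.5 CPM (-0.38, and -1.05 with the trend removed), and *Rae1*, an mRNA export factor gene, was higher at 40.1 and 43.5 CPM against 64.8, 58.9 and 57.8 CPM (0.53, and 0.26). *Pmepa1* and *1700021F07Rik* did not pass the test without the correction, at -0.18 and 0.17.

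The changes of spermatocytes were set beside those of the other tissues of *Boris*-/- mice. Of the genes called higher, 90.3% had the same sign in round spermatids, and of those called lower 96.0%, against 82.4% of all tested genes. With the GC trend removed in both cell types, the shares were 81.4% and 89.6% against 74.3%. In CM against CTCF HET spermatocytes, 73.0% of the genes called higher and 62.2% of those called lower had the same sign, against 57.6% of all tested genes. In whole testis, where 9 genes were called (0.0551%) and 273 with the replicate number as a block, the shares were 59.8% and 52.99%, against 54.0%. Both were also taken with the GC trend removed in BORIS KO against WT spermatocytes only. For CM against CTCF HET the shares were then 78.2% and 65.5%, against 60.1%. For whole testis, 127 of 258 genes called higher and 106 of 212 called lower then had the same sign, against 52.4% of all tested genes. A direct test of the difference between spermatocytes and round spermatids in one fit called 768 genes (4.65%). The change of *Spo11* differed with the smallest p, being -0.48 in spermatocytes and -2.47 in round spermatids. *Tmem225* and *Galnt7* were called higher in spermatocytes, at 1.63 and 1.02, and were lower in round spermatids, at -0.43 and -0.70, where with the GC trend removed they stood at 0.33 and 0.08.

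At the start of genes, before the GC trend was removed, the share with a BORIS peak among raised genes was close to that of all tested genes. Among lowered genes it was lower. With the trend removed it was below that of all tested genes in both sets, and more so in raised genes. These differences were not tested. A BORIS peak of WT germ cells lay within 1 kb of a transcript start of 17.9% of the genes called higher and 12.7% of those called lower, against 18.9% of all tested genes, and of 12.2% and 15.4% with the GC trend removed, against 19.2%. Within 2 kb, without the correction, the share of raised genes was 22.1% against 20.8% of all tested genes, and with the trend removed 15.05% against 21.1%. For CTCF the shares were 35.3% and 22.8% against 33.4%, and 25.8% and 26.7% against 33.8% with the trend removed, so that raised genes went from above to below the share of all genes. Peaks of RNA polymerase II lay at 45.4% and 37.1% against 60.3%, and peaks of H3K4me3, a mark of active starts, at 63.3% and 54.0% against 75.6%. With the trend removed these were 41.2% and 24.4% against 60.3%, and 54.5% and 47.7% against 76.0%. The peaks were mapped in germ cell preparations of whole testis and not in spermatocytes, with 1 list per antibody and no replicate error.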

How the data were processed

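Poly(A) RNA of sorted spermatocytes was sequenced by the authors and aligned to mm9 with STAR. They deposited raw read counts per gene symbol, 23284 genes without normalization, and the counting tool, annotation and use of strand are not given in the sources used here. The BORIS and CTCF peaks were deposited with their height, a signal of unstated normalization, and the Pol2 and H3K4me3 peaks with a score. The depth behind the peaks is unknown, and heights were not compared between lists.

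Counts were filtered with edgeR (4.0.16) filterByExpr (10 counts per library, 15 in total), scaled by TMM and tested by quasi-likelihood (glmQLFit, robust, and glmQLFTest) on the groups of one comparison alone, with Benjamini-Hochberg adjustment over all genes tested. The difference between cell types was tested as an interaction over their WT and BORIS KO libraries. CPM were computed by edgeR from library totals times TMM factors, within each fit. Called means adjusted p < 0.05 and fold change > 2. GC content and length are of the GENCODE annotation of mm9, matched by symbol (93.0% of tested genes have a GC value). As an offset the fit then took each library's loess trend (span 0.3) over GC content. The trend was that of log2 CPM, with 0.5 added to the counts, minus the mean of the gene over the libraries. It was an alternative chosen after seeing the data, as was the same for exon length. The edgeR and DESeq2 fits of 2 groups were tested on simulated counts without a GC trend. The fits with an offset, a block or an interaction were not. Intervals of count ratios are exact and cover counting error only.

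The members and lists were chosen with earlier results of these data known. Named are *Ctcf* and *Ctcfl*, the 15 called genes with the smallest p in each direction, called list members and otherwise up to 4 of smallest p, genes the study names, tested genes within 500 kb of *Ctcfl*, and the 3 with the smallest interaction p in each direction. Genes called in 3 comparisons, X-linked and other genes called in both fits, and *Sycp3*, *Sycp1* and *Hspa2* were added after values were seen. No replicate pair had counts that agreed within sampling noise. In spermatocytes, same-numbered WT and BORIS KO libraries had residual correlations of -0.048 and -0.009, so the numbers were not read as pairs. In whole testis they were 0.600, 0.176 and 0.239, so the numbers may pair those libraries, and a fit with the number as a block was added. Whole testis values are from the fit without pairing, which called 9 genes, unless the block is named. The block called 273, so few calls without pairing say little. DESeq2 (1.42.0) and limma-voom (limma 3.58.1) were alternatives. Peaks were assigned within 1 kb of annotated starts. Some results are not reported here.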

Additional observations from a re-analysis of the deposited data

Results flagged for a closer look

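The effect of BORIS KO differed between spermatocytes and round spermatids in 768 genes by the edgeR interaction test at adjusted p < 0.05 and fold change > 2. The log2 fold change of *Spo11* was 2.07 higher in spermatocytes than in round spermatids (adjusted p = 4.88e-05, and 1.80 with the GC trend removed). *Tmem225*, a membrane protein gene of the testis, had a difference of 2.13 (adjusted p = 0.000179) and *Galnt7*, an N-acetylgalactosaminyltransferase gene, one of 1.79 (adjusted p = 0.000237), and with the GC trend removed these were 1.75 and 1.40. In the other direction the difference was -1.74 for *Dstyk*, a kinase gene (adjusted p = 0.00108), -0.90 for *Tmem64* (adjusted p = 0.00267) and -1.46 for *Fgfr3*, a fibroblast growth factor receptor gene (adjusted p = 0.00339). In spermatocytes *Dstyk* changed by 0.36 and *Fgfr3* by 0.29, against 2.18 and 1.83 in round spermatids. These values are set out because the effects of 2 cell types differed under 1 contrast, and what makes them differ was not tested.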

How the results depend on the processing

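Against 1208 genes called at adjusted p < 0.05 and fold change > 2 (748 higher, 460 lower), the counts were 300 (98 and 202) with all 4 spermatocyte genotypes in 1 fit, 545 (279 and 266) with the GC trend removed and 8207 (4175 and 4032) without the fold threshold. Against 684 at adjusted p < 0.001 (377 and 307), they were 87 (5 and 82), 203 (83 and 120) and 4420 (2090 and 2330), and 334 (166 and 168) with round spermatids in the same fit. Leaving out each library in turn gave 734 to 1402 calls (472 to 786 higher, 262 to 630 lower) and at the stricter threshold 187 to 1009 (91 to 550 and 96 to 459), and the lowest counts came without WT replicate 1, where 734 were called (472 and 262) and 187 at the stricter threshold (91 and 96). With the GC trend removed the share of higher among called genes went from 61.9% to 51.2%. RLE scaling, DESeq2, limma-voom, no filter and the exon length offset gave 1003 to 1301 calls. The replicate block gave 1259 in spermatocytes, and 4162 in round spermatids against 4173, and changed no other count by over 1.5 times besides 273 against 9 in whole testis and 41 against 24 in CM against CTCF HET. Those 2 comparisons had 225 and 170 calls by DESeq2. With the GC trend removed CM against CTCF HET had 47 calls, round spermatids 1342 and the interaction 417 against 768. Within 2 kb of starts BORIS peaks lay at 22.1% of raised and 20.8% of all genes, and CTCF peaks at 44.0% and 38.5%. With the GC trend removed these were 15.05% and 21.1% for BORIS, and 30.5% and 38.9% for CTCF. Of 107 named called genes, 63 remained called with the GC trend removed and 40 did not, 76 remained without WT replicate 1, and 51 remained and 56 did not with all 4 genotypes in 1 fit. No named gene reversed its direction past the thresholds. With 2 WT libraries the spread of that group rests on 1 difference, and genes under the filter could not be judged at this depth.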
